A study of Mus musculus with 4 samples.

Results

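The transporters that carry amino acids and sugars across membranes were compared between wildtype mouse embryonic stem (ES) cells and ES cells in which SOCS3, a feedback inhibitor of JAK kinases and STAT3, was knocked out. A gene was taken as a member when its symbol was Slc1a, Slc2a, Slc3a, Slc5a, Slc6a, Slc7a, Slc36a, Slc38a or Slc43a followed by a number alone, and it was represented by its brightest probe set on average over the 4 arrays. This gave 80 genes of the 18193 that had a probe set with 1 gene symbol. Of the 80, 58 belong to the amino acid families and 22 to the sugar families Slc2 and Slc5. Another 7 symbols with letters after the number, such as Slc7a6os, were left out. The study measured total RNA on 4 expression arrays, 2 of wildtype and 2 of SOCS3-null ES cells. The labels give no strain, clone, passage, medium or age for either group and leave unsaid whether arrays of the same group came from different cultures. The p-values therefore cover only array-to-array spread, which may be technical.

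Cells take up amino acids through carriers that differ in their substrates and in the force that drives them. Members of Slc7 are grouped as cationic amino acid carriers or as light chains. Most of the cationic group bring in arginine and lysine on their own. Most light chains reach the membrane only when joined to a heavy chain, Slc3a2 or Slc3a1. The Slc38 and Slc1 carriers couple neutral or acidic amino acids to sodium. Slc36 carriers such as Slc36a1 couple small amino acids to protons, and the family acts in part on the lysosome. Slc2 and Slc5 hold the facilitative and the sodium-coupled sugar carriers. The family names are wider than their titles: Slc6a8 carries creatine, Slc43a3 carries nucleobases, Slc5a6 carries vitamins and Slc5a5 carries iodide.

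RefSeq promoter windows are shown for 5 members whose transcripts changed, because they set a light chain that rose beside its close relative that fell, show the light chain Slc7a9, and hold 2 of the amino acid carriers of the lysosome. Each is the 250 bases before the most upstream listed start, on GRCm38.p6: Slc7a6 at chr8:106168604-106168853 (plus strand), Slc7a7 at chr14:54417945-54418194 (minus strand), Slc7a9 at chr7:35448842-35449091 (plus strand), Slc36a1 at chr11:55204090-55204339 (plus strand) and Slc38a7 at chr8:95853492-95853741 (minus strand). Sequences run 5′ to 3′ in the direction of the gene, and capitals mark matches, on either strand, to 4 motifs: the core of the amino acid response element (TGATGNAA), a GATA motif (AGATAA), a STAT motif (TTCNNNGAA) and an E-box (CACGTG).
Slc7a6: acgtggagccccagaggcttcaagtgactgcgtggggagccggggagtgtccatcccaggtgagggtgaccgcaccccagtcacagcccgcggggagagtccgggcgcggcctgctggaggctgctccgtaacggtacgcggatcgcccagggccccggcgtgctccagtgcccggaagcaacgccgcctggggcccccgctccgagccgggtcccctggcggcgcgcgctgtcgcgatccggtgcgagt
Slc7a7: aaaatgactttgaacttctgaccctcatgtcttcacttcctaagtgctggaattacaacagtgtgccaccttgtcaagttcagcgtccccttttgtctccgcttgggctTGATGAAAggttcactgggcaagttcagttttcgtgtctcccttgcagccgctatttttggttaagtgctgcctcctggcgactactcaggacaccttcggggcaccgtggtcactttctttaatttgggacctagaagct
Slc7a9: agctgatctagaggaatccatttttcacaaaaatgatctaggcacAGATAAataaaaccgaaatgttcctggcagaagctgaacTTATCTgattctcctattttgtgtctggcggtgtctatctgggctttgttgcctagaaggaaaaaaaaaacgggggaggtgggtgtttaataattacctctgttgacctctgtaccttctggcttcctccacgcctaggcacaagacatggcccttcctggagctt
Slc36a1: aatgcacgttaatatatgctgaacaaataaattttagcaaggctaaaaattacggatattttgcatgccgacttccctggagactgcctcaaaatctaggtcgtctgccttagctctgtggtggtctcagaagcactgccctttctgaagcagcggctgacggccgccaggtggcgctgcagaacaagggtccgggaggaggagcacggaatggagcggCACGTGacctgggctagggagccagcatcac
Slc38a7: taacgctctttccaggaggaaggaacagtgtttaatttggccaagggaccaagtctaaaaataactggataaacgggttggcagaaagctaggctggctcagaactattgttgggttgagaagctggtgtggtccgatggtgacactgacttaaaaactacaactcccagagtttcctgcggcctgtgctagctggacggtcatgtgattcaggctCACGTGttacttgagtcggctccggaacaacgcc

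The window of Slc7a6 held none of the 4 motifs. That of Slc7a7 held 1 amino acid response core, with its first base 141 bases before the start, and that of Slc7a9 held 2 GATA motifs, 166 and 205 bases before the start. The windows of Slc36a1 and Slc38a7 each held 1 E-box, 31 and 34 bases before the start. Over all 32851 windows of this length, 3.45% held the amino acid response core, 9.99% the GATA motif, 7.02% the STAT motif and 6.02% the E-box. These shares count every listed start, so a gene can enter more than once. Counted in the same way, 10 of the 81 windows of members held the E-box, and 4 held each of the other motifs. Promoter entries were found for 58 of the 80 members. By the most upstream window of each, 10 of these 58 held an E-box, 3 the amino acid response core, 3 the STAT motif and 2 the GATA motif. Among the 8 members that rose and had an entry, 2 held the E-box, 1 the GATA motif and 0 the other motifs. Of the 2 that fell and had an entry, 1 held the E-box and 1 the amino acid response core. The remaining members with an E-box were not called or not tested. A match describes these letters and is not a binding site.

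Of the 80 members, 48 reached the intensity needed for a test, a mean log2(intensity + 16) over the 4 arrays at or above the 40th percentile of all probe sets. The other 32 lay below it and were not tested, such as the glucose carriers Slc2a2 and Slc2a4 and the cystine carrier Slc7a11. Of the 48, Slc1a1, Slc6a14 and Slc7a9 reached it only through the SOCS3-null arrays. Of the 48, 11 rose in SOCS3-null cells, 4 fell and 33 did not pass limma at a Benjamini-Hochberg adjusted p under 0.05 over all genes tested. That is 31.3% of the members tested, beside 22.7% of all 12732 genes tested (13.1% higher and 9.55% lower). The median change of the members was 0.05 on the log2 scale, SOCS3-null minus wildtype, against 0.00 for all genes. All 15 called members were in the amino acid families, where 15 of 36 tested were called. In the sugar families limma called 0 of 12, of which 3 had an unadjusted p under 0.05. This difference between the families was not tested. Several sugar members had little signal: Slc2a5, Slc5a1, Slc5a5 and Slc5a9 were dim on all arrays, at 11.1 to 16.3. In the amino acid families Slc1a7, Slc6a17 and Slc7a4 were similarly dim. Changes of at least 1 were found in 9 called members, or 18.8% of those tested, beside 9.29% of all genes. The groups of arrays did not overlap for 36 of the 48 members, or 75.0%, beside 65.8% of all genes. This share was the same in the amino acid families (27 of 36) and in the sugar families (9 of 12). With any 1 array left out limma called 0 members and 0 genes in all, while 12 to 27 members had an unadjusted p under 0.05.

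**Figure D1:**
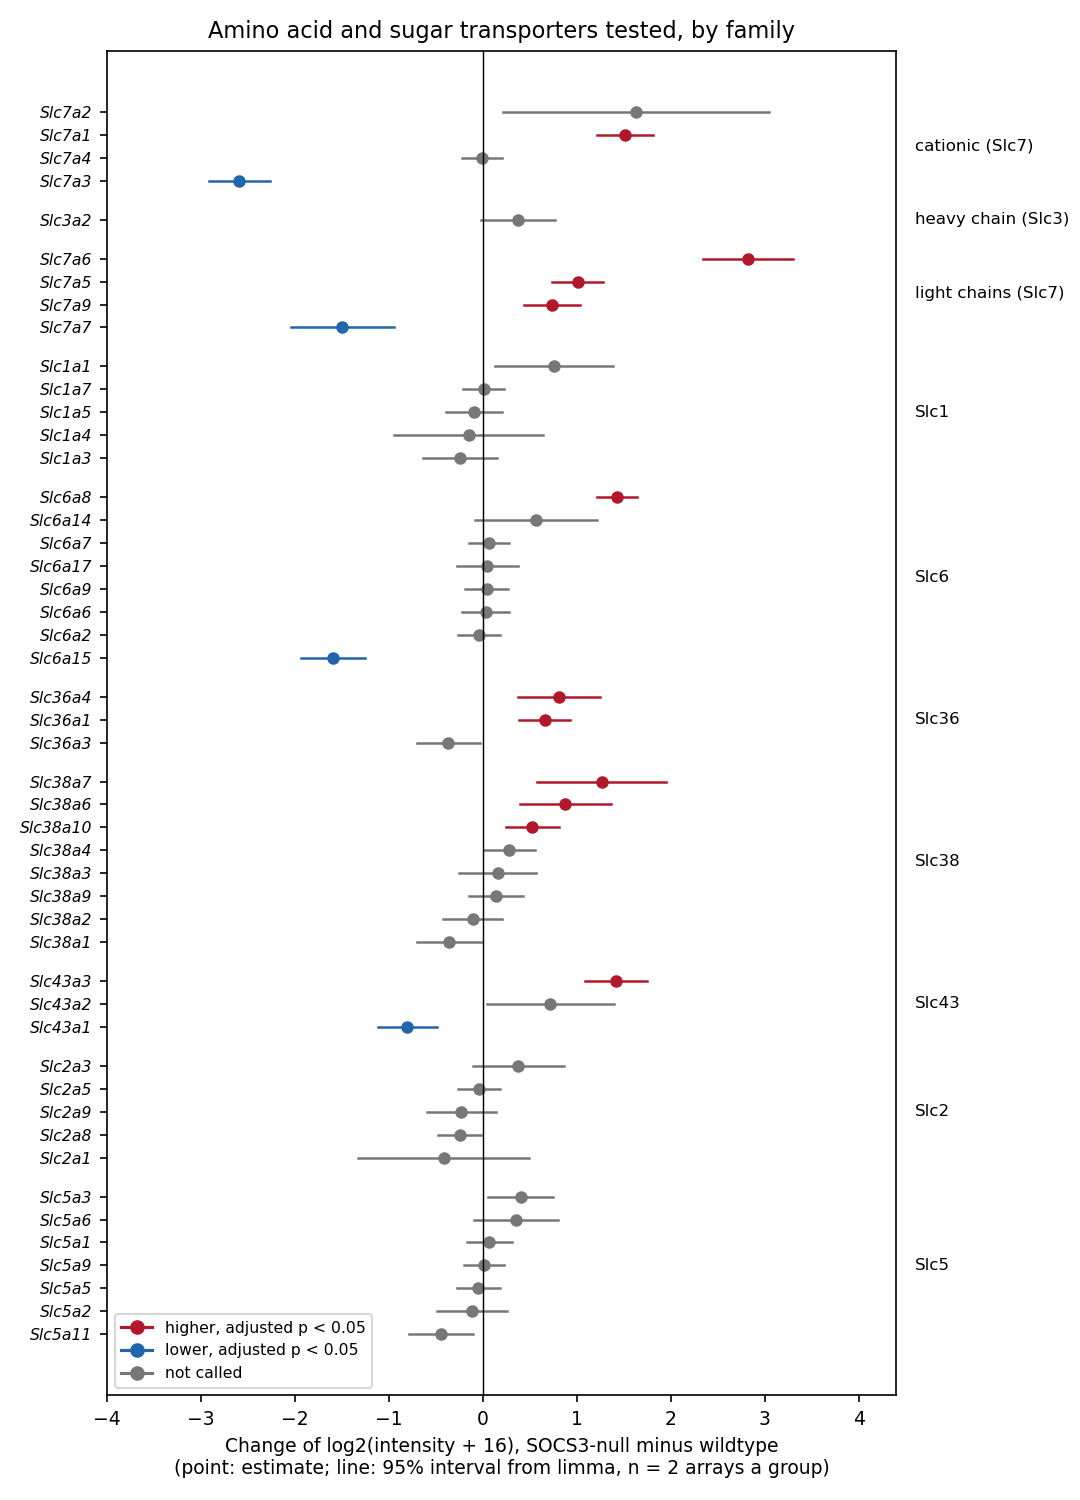
Change of log2(intensity + 16), SOCS3-null minus wildtype, for the 48 transporters tested, sorted within each family; points are estimates and lines are 95% intervals from limma with 2 arrays a group. Red marks the 11 members that rose and blue the 4 that fell; both sugar families at the bottom, Slc2 and Slc5, hold grey points alone.

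The targeted gene and the cell markers set the frame. Socs3 was at 3024 and 1884 on the wildtype arrays and at 19.3 and 12.9 on the SOCS3-null arrays. Of 18 tested markers of primitive and extraembryonic endoderm 15 rose and 0 fell; 3 of the 15, Gata4, Sox17 and Foxa2, reached the filter only through the SOCS3-null arrays. Summed over all 19 markers of this list, intensity was 3412 to 3936 on the wildtype arrays and 58112 to 60686 on the SOCS3-null arrays. None of the 19 was at 0. This sum and those below include any untested markers of a list. The ES cell markers were present in both groups: 2 of 9 fell, 0 rose, and their sum was 52517 to 53304 in wildtype and 37191 to 40471 in SOCS3-null cells. The median change of these 9 was -0.42, and 4 had an unadjusted limma p under 0.05. The uncalled ones all differed downward, by -1.70 to -0.01. Of 8 tested fibroblast and feeder markers 0 were called by limma, and 0 had an unadjusted p under 0.05. But the sum over all 9 varied within both groups, from 2439 to 4148 in wildtype and from 2838 to 4672 in SOCS3-null cells. Mesoderm and trophoblast markers summed to 1043 to 1277 in wildtype and 625 to 705 in SOCS3-null cells. Most of those tested did not follow this sum. Of the 4 tested, Eomes was called higher (0.94) and Tfap2c lower (-1.11), and the 2 uncalled ones differed by 0.43 and 0.90. Their median change was 0.66, and 1 of the 4 reached the filter only through the SOCS3-null arrays. Neuroectoderm markers summed to 758 to 767 in wildtype and 225 to 242 in SOCS3-null cells. Of these, 3 of 5 tested were lower, of which Map2 reached the filter only through the wildtype arrays. The part of these cell types in the transporter changes was not tested. In RNA of whole cultures, fewer cells of a type and less RNA per cell cannot be told apart.

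Among the cationic amino acid carriers, the arginine and lysine carriers of the y+ system, 1 rose and 1 fell. Slc7a3 (CAT3) was at 1777 and 1780 on the wildtype arrays and at 308 and 257 on the SOCS3-null arrays. Both SOCS3-null arrays lay far below both wildtype arrays, and it was the largest decrease among the members tested, a change of -2.59 (SE 0.12, limma adjusted p = 0.00477). Slc7a1 (CAT1), the widely expressed carrier of the same substrates, moved the other way. Its intensities were 665 and 573 in wildtype, against 1794 and 1795 in SOCS3-null cells. The groups did not overlap, and Slc7a1 rose by 1.52 (SE 0.11, limma adjusted p = 0.0074). A further probe set of Slc7a1 rose by 1.58 (adjusted p = 0.0121 over probe sets), and a dim one that differed by 0.32 did not pass. Slc7a2 (CAT2) was at 29.8 and 17.6 in wildtype and at 60.7 and 175 in SOCS3-null cells. The SOCS3-null arrays were the higher ones but were far apart, and the difference of 1.63 (SE 0.50, limma adjusted p = 0.0991) did not pass. A dimmer probe set of Slc7a2 differed by 0.33 and did not pass either. The related Slc7a4 was at 13.2 to 13.8 on the 4 arrays and Slc7a14 was too dim to test.

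The light chains that pair with a heavy chain showed a second opposed pair. Slc7a6 (y+LAT2) and Slc7a7 (y+LAT1) both join Slc3a2 and exchange cationic for neutral amino acids. Slc7a6 was at 210 and 201 in wildtype and at 1798 and 1337 in SOCS3-null cells. The groups were well apart, and its rise of 2.82 (SE 0.17, limma adjusted p = 0.00639) was the largest of the members. Its other probe set went from 144 and 142 to 1406 and 1428, a change of 3.17. Slc7a7 was at 1085 and 1262 in wildtype and at 477 and 343 in SOCS3-null cells. It was lower on both SOCS3-null arrays and fell by 1.49 (SE 0.20, limma adjusted p = 0.0182), with -1.58 on its other probe set. Without the filter on dim probe sets Slc7a7 was not called. Slc7a5 (LAT1), which brings in leucine and other large neutral amino acids, was at 601 and 676 in wildtype and at 1276 and 1325 in SOCS3-null cells. The arrays of each group lay close together, and it rose by 1.01 (SE 0.10, limma adjusted p = 0.0104). Slc7a9, the light chain of cystine and cationic amino acid uptake in kidney and gut, went from 8.96 and 10.3 to 29.7 and 23.8. It rose by 0.73 (SE 0.11, limma adjusted p = 0.0223), but it was dim on all arrays and reached the filter only through the SOCS3-null group, so it could pass only if it differed. At pseudocounts of 1 and 64 the change was 1.38 and 0.30, and without the filter Slc7a9 was not called. Its heavy chain Slc3a1 was too dim to test, at 4.57 to 4.67.

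The heavy chain Slc3a2, which carries Slc7a5, Slc7a6 and Slc7a7 to the surface, was at 1398 and 1546 in wildtype and at 1724 and 2125 in SOCS3-null cells. Both SOCS3-null arrays were the higher ones, but the difference of 0.38 (95% interval -0.02 to 0.77, limma adjusted p = 0.141) did not pass. The other light chains Slc7a8, Slc7a10, Slc7a11, Slc7a12, Slc7a13 and Slc7a15 were not tested, with intensities of 4.55 to 11.1.

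**Figure D2:**
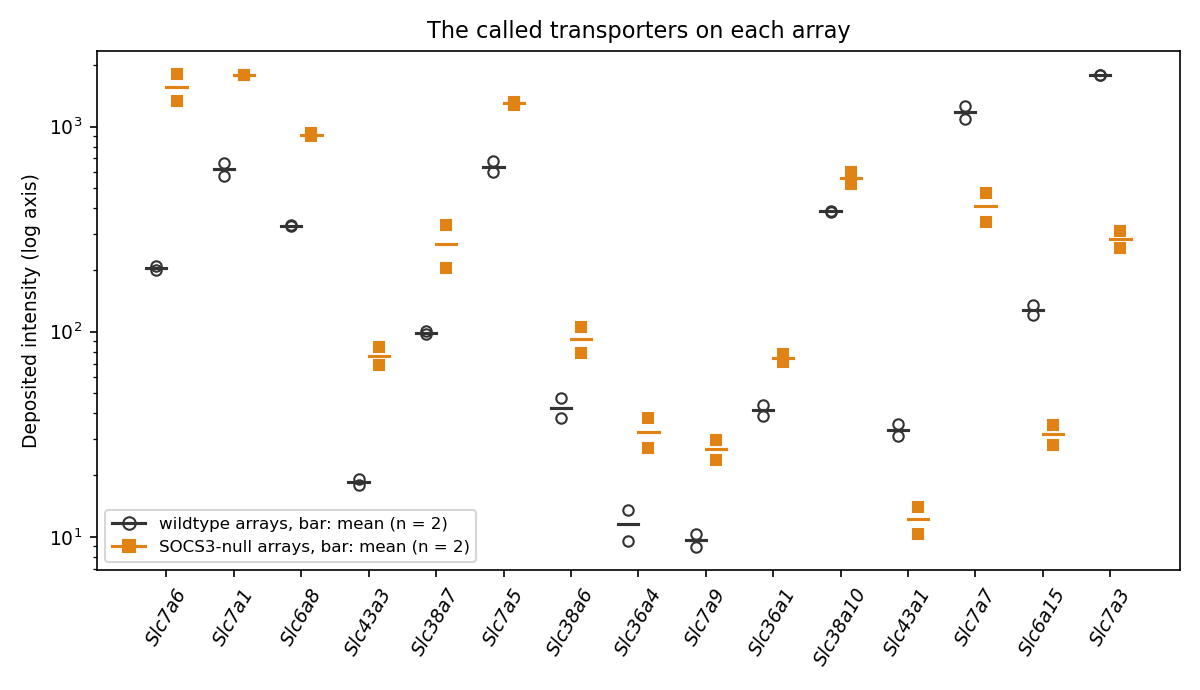
Deposited intensity (log axis) of the 15 called transporters on each array, from the largest rise on the left to the largest fall on the right; open circles are wildtype arrays, filled squares SOCS3-null arrays and bars the mean of 2 arrays. In every gene shown the 2 groups are apart, from Slc7a6 (201 to 210 against 1337 to 1798) to Slc7a3 (1777 to 1780 against 257 to 308).

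In the Slc6 family, whose carriers use sodium and chloride, 8 of 18 members were tested, and 1 rose and 1 fell. Slc6a8, the creatine carrier, was at 330 and 327 in wildtype and at 896 and 927 in SOCS3-null cells. The spread within groups was small beside the gap, and it rose by 1.43 (SE 0.08, limma adjusted p = 0.00542), with 1.54 on its other probe set. Slc6a15, a carrier of branched-chain and other neutral amino acids best known from neurons, was at 120 and 135 in wildtype and at 35.3 and 28.0 in SOCS3-null cells. It was lower on both SOCS3-null arrays and fell by 1.60 (SE 0.12, limma adjusted p = 0.00788); with a pseudocount of 64 the change was -1.003. The taurine carrier Slc6a6 was at 927 and 992 in wildtype and at 947 and 1010 in SOCS3-null cells. These groups overlapped, with a difference of 0.03 (95% interval -0.22 to 0.28). Slc6a14, a broad amino acid carrier of epithelia, was dim, at 7.0 and 7.29 against 26.4 and 11.7, and did not pass (limma adjusted p = 0.168). The carriers of dopamine (Slc6a3), serotonin (Slc6a4) and glycine at synapses (Slc6a5) were too dim to test.

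Of the 3 Slc36 members tested 2 rose, as did Slc38a7, which like Slc36a1 acts on lysosomes. Slc36a1 (PAT1), which moves small amino acids out of the lysosome with protons, was at 43.8 and 38.9 in wildtype and at 77.9 and 70.9 in SOCS3-null cells. The groups did not overlap and it rose by 0.66 (SE 0.10, limma adjusted p = 0.0222), or 0.39 with a pseudocount of 64. Slc36a4 (PAT4), a proline and tryptophan carrier, was dimmer, at 13.5 and 9.57 against 27.0 and 37.9, and rose by 0.81 (SE 0.16, limma adjusted p = 0.0385); at pseudocounts of 1 and 64 the change was 1.42 and 0.35. Slc38a7 (SNAT7), which exports glutamine from lysosomes, was at 97.7 and 101 in wildtype and at 330 and 205 in SOCS3-null cells. Both SOCS3-null arrays were higher though unequal, and it rose by 1.26 (SE 0.24, limma adjusted p = 0.0385). Slc38a9, the lysosomal arginine sensor of mTORC1, did not pass, at 38.0 and 32.8 against 38.1 and 43.2 (0.14, 95% interval -0.15 to 0.43). The 5 tested probe sets of Slc38a9 differed by 0.10 to 0.50, and none passed. Slc36a3 differed by -0.37 (limma adjusted p = 0.109) and Slc36a2 was too dim to test. With a pseudocount of 64 Slc36a4 and Slc38a7 were not called, and without the filter on dim probe sets neither was called.

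Among the other sodium-coupled carriers of the Slc38 family, 2 further members rose and 0 fell. Slc38a6 went from 37.8 and 47.3 to 106 and 78.6, and rose by 0.88 (SE 0.17, limma adjusted p = 0.0392). Slc38a10 went from 388 and 385 to 602 and 528, and rose by 0.53 (SE 0.10, limma adjusted p = 0.0369). Of the 6 probe sets of Slc38a10 tested, 2 were called, both higher, and the others differed by -0.05 to 0.32. As the mean of its probe sets Slc38a10 changed by 0.24 and was not called, and without the filter neither gene was; Slc38a6 changed by 0.55 with a pseudocount of 64 and was not called. The main glutamine and alanine carriers of this family at the cell surface did not pass. Slc38a2 (SNAT2), a transcript that rises when amino acids run short, was at 2480 and 2783 in wildtype and at 2306 and 2579 in SOCS3-null cells. Its groups overlapped, with a difference of -0.11 (95% interval -0.42 to 0.21). The imprinted Slc38a4 was at 1280 and 1223 against 1440 and 1613, a difference of 0.28 (limma adjusted p = 0.123). For Slc38a1 the 2 probe sets differed in opposite directions, by -0.36 and 0.34, and neither passed.

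The Slc43 family split as well. Slc43a3, a purine nucleobase carrier, was at 19.2 and 17.9 in wildtype and at 68.5 and 84.4 in SOCS3-null cells. It was higher on both SOCS3-null arrays and rose by 1.41 (SE 0.12, limma adjusted p = 0.00886); at pseudocounts of 1 and 64 the change was 1.98 and 0.76. Slc43a1 (LAT3), a carrier of large neutral amino acids, was at 30.9 and 35.4 in wildtype and at 10.3 and 14.0 in SOCS3-null cells. It was lower on both, with a change of -0.80 (SE 0.11, limma adjusted p = 0.0205) that ended at a dim level; at pseudocounts of 1 and 64 the change was -1.39 and -0.35, and without the filter it was not called. Slc43a2 (LAT4), a carrier of the same substrates, was at 17.9 and 23.6 against 33.1 and 58.2 and did not pass (0.72, limma adjusted p = 0.115). Its other tested probe set, nearly as bright, was at 33.0 and 27.0 against 24.8 and 36.0 and differed by 0.01.

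None of the 5 tested carriers of glutamate and neutral amino acids in Slc1 was called by limma, and 1 had an unadjusted p under 0.05. Slc1a5 (ASCT2), a glutamine carrier of dividing cells, was at 363 and 385 in wildtype and at 375 and 325 in SOCS3-null cells. The groups overlapped, with a difference of -0.09 (95% interval -0.39 to 0.21). The serine and alanine carrier Slc1a4 was at 172 and 148 against 106 and 188, with SOCS3-null arrays on both sides of wildtype. The glutamate carrier Slc1a1 went from 9.27 and 10.2 to 19.4 and 37.1 and did not pass (0.75, limma adjusted p = 0.0907); it reached the filter only through the SOCS3-null arrays.

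No sugar carrier was called by limma. Slc2a1 (GLUT1), the widely expressed glucose carrier, was at 10347 and 9227 in wildtype and at 5413 and 9888 in SOCS3-null cells. The SOCS3-null arrays differed from each other by more than the groups did, and the difference was -0.42 (SE 0.32, 95% interval -1.33 to 0.50, limma adjusted p = 0.421). Without SOCS3-null replicate 1 it was 0.02, and without replicate 2 -0.85. Slc2a3 (GLUT3), a high-affinity glucose carrier, was at 9052 and 9186 in wildtype and at 10175 and 13772 in SOCS3-null cells. Both SOCS3-null arrays were higher, but the difference of 0.38 (95% interval -0.11 to 0.86, limma adjusted p = 0.207) did not pass. Its 4 probe sets did not share a direction: they differed by 0.38, 0.43, -0.20 and -0.41, and none passed. Slc2a8 was at 121 and 114 against 93.9 and 98.9 (-0.25, limma adjusted p = 0.114). Among the 7 Slc5 members tested, the myo-inositol carrier Slc5a3 was at 133 and 129 against 161 and 197 (0.40, limma adjusted p = 0.0962), and Slc5a11, which also carries inositol, was at 42.7 and 46.4 against 32.4 and 24.8 (-0.45, limma adjusted p = 0.0754). The intervals of Slc2a1 and Slc2a3 leave room for changes of the size called in other members.

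**Figure D3:**
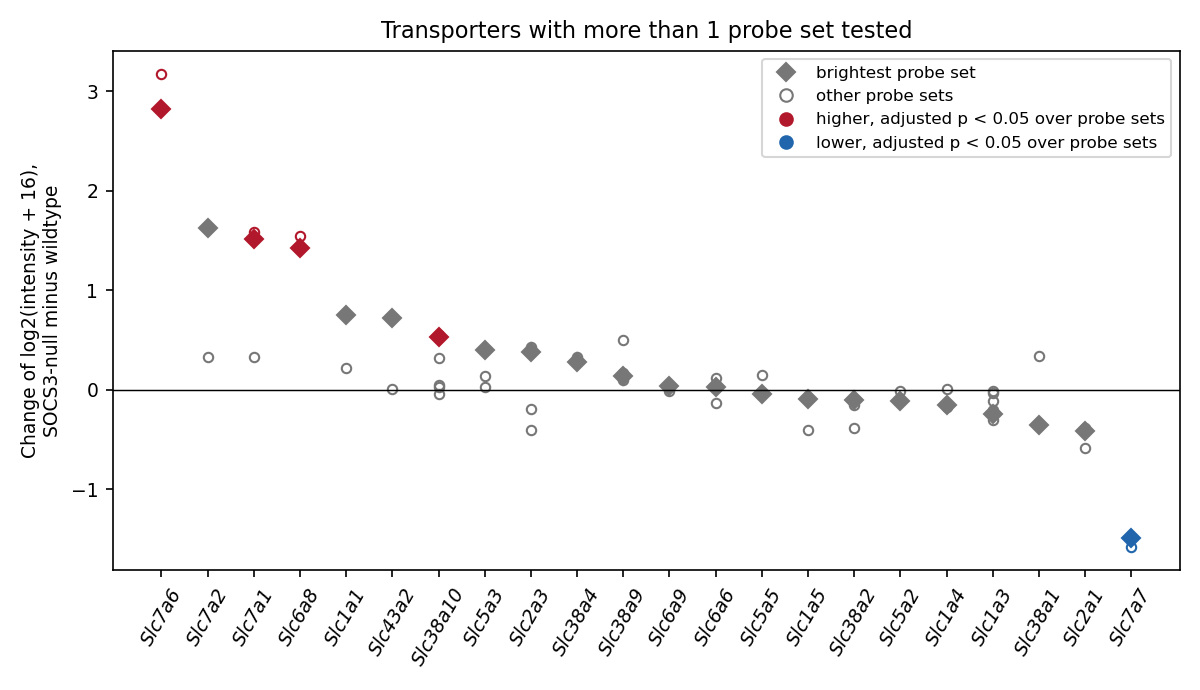
Change of log2(intensity + 16), SOCS3-null minus wildtype, for every tested probe set of the 22 transporters with more than 1; diamonds are the brightest probe sets, open circles the others, and colour marks an adjusted p under 0.05 over all probe sets. Both probe sets of Slc7a6, Slc6a8 and Slc7a7 were called in the same direction, while those of Slc2a3 and Slc38a1 lie on both sides of 0.

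For 22 members more than 1 probe set was tested. In 7 of them the probe sets lay on both sides of 0, and in 2, Slc7a1 and Slc38a10, called and uncalled probe sets stood side by side. None of the 22 had called probe sets in opposite directions.

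Genes of amino acid response, sensing and use, of hexose use and of transporter traffic and level were taken from 5 lists. They were compared with the background of 22.7%. Of 24 tested genes of the amino acid response and of serine and proline synthesis 2 rose and 2 fell, with a median change of 0.10. The stress factor Atf3 rose from 19.8 and 19.8 to 79.5 and 79.8, and the secreted hormone Stc2 rose by 0.94. Psat1, an enzyme of serine synthesis, went from 4316 and 4045 to 2748 and 2728, a change of -0.61, and the transaminase Gpt2 changed by -0.42. The regulator Atf4 was at 2577 and 2362 against 2781 and 2708 and was not called. Of 26 genes by which mTORC1 senses amino acids 0 rose and 1 fell, with a median of 0.01: Sesn3 went from 190 and 224 to 69.4 and 82.7, a change of -1.28. In the list of amino acid use 1 of 18 rose and 3 fell, with a median of 0.04. Glud1, which opens glutamate into the citric acid cycle, rose by 0.86. Gclc and Gclm, the 2 subunits of the enzyme that starts glutathione synthesis, changed by -0.93 and -0.85, and Shmt1, which passes carbon from serine to folate, by -0.76.

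The hexose list had 13 members tested, of which 3 rose and 1 fell, with a median of 0.14. Hk1, a hexokinase, went from 236 and 244 to 404 and 463 and rose by 0.81. Pgm2 and Ugp2, which lead sugar phosphates toward glycogen and nucleotide sugars, rose by 1.35 and 0.69, and the fructokinase Khk changed by -0.45. Regulators of the traffic and level of transporters had 12 members tested, of which 4 rose and 2 fell, with a median of 0.40. Emb and Bsg, the embigin and basigin chaperones of monocarboxylate carriers, moved apart: Emb went from 1433 and 1378 to 278 and 225, a change of -2.42, while Bsg rose from 4192 and 4460 to 6853 and 7138, a change of 0.69. Stom, a membrane protein that binds Slc2a1, rose by 1.75 from 33.7 and 39.2 to 143 and 179. The ubiquitin ligase Nedd4 changed by -0.83, the kinase Sgk3 rose by 0.71 and Tbc1d4, which holds glucose carriers inside the cell, rose by 0.83. These 10 genes that rose and 9 that fell were 19 of 92 tested over the 5 lists, or 20.7%. Of the 19, Atf3, Sesn3, Glud1, Gclc, Hk1, Pgm2, Emb, Bsg and Stom were called in each of the 12 alternatives that kept all arrays. Gpt2 was called in 4 of these 12, Ugp2, Gclm and Sgk3 in 9, and Stc2, Psat1, Shmt1 and Nedd4 in 11. Tbc1d4 was called in 8 and Khk in 9 of the 11 in which they were tested. With a pseudocount of 64 the changes were 0.78 for Atf3, 0.61 for Stc2, 1.16 for Stom, 0.42 for Sgk3, 0.39 for Tbc1d4 and -0.22 for Khk, and as the mean of its probe sets Stc2 changed by 0.35 and was not called.

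**Figure D4:**
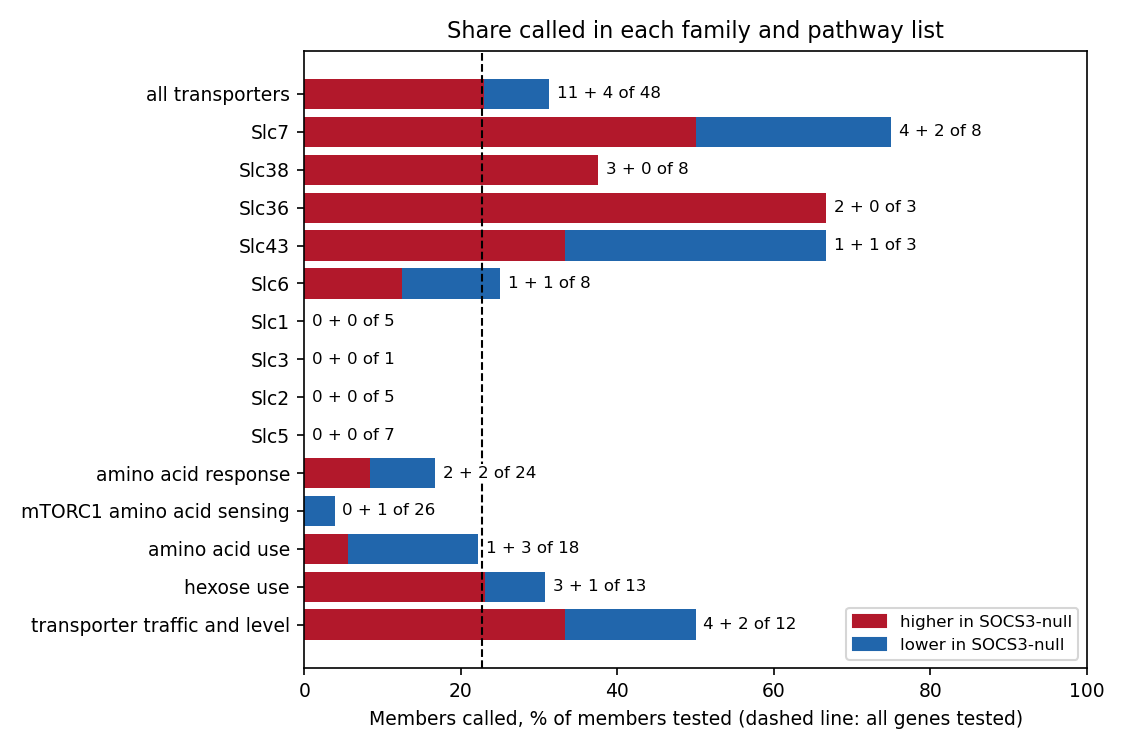
Share of tested genes called in each transporter family and in the 5 pathway lists, in percent, with the number higher plus the number lower of those tested beside each bar; the dashed line is the 22.7% of all genes tested. Slc7 stands at 6 of 8, Slc7a9 among them, Slc1, Slc2, Slc3 and Slc5 at 0, and the mTORC1 list at 1 of 26.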

How the data were processed

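The authors deposited 1 intensity value on a linear scale for each of 45101 probe sets on each of 4 arrays; how these were summarised and normalized is not given in the sources used here. Array medians were 15.7 to 16.0 after the 64 control probe sets were left out, so the values were not normalized again. The number of arrays limits the precision. Symbols came from a platform annotation: 34945 probe sets had 1 symbol, 932 several and 9160 none, and those with several or none were not named. Members and lists were chosen with earlier results of these data known. Tests used limma 3.58.1 in R 4.3.3 (lmFit, eBayes, genotype as the only term) on log2(intensity + 16); the added 16 makes changes of dim genes look smaller. The 27022 probe sets at or above the 40th percentile were tested, and the brightest per gene gave 12732 genes. Calls are two-sided, at a Benjamini-Hochberg adjusted p below 0.05. Any member could be named. From other lists, called genes and those with the smallest p could be named. Atf4 was neither and was named outside this rule. Of 164 list entries 145 matched a symbol; the rest were not analysed here. The procedure was tested on simulated data. Same-numbered arrays deviated with a correlation of -0.12, so numbers were not taken as pairs. Alternatives changed the pseudocount (1 or 64), the scaling (quantile or median), the filter (none, or the 60th percentile), the variance model (trend, robust trend) and the probe sets (their mean), added the replicate block, or left out each array; the crossed block and choosing probe sets by linear mean were added after the data were seen. Promoters came from RefSeq (GRCm38.p6). Figures used matplotlib 3.10.9.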

Additional observations from a re-analysis of the deposited data

How the results depend on the processing

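The 15 called members kept their direction under each alternative in which they were tested, which was 15 for Slc36a4, Slc43a1 and Slc7a9, too dim for the filter at the 60th percentile, and 16 for the others; 8 of the 15 were called in each of the 12 that kept all arrays: Slc7a1, Slc7a3, Slc7a5, Slc7a6, Slc6a8, Slc6a15, Slc43a3 and Slc36a1. Without the filter on dim probe sets 8 members and 1631 genes were called, in place of 15 and 2888. With the replicate block, whose numbers were not shown to pair the arrays, 1914 genes and 11 members were called, without Slc36a4, Slc38a6, Slc38a10 and Slc7a9; crossing the numbers gave 2817 genes and 15 members, 14 of them shared, with Slc7a2 gained and Slc38a10 lost. With each array left out in turn the counts of genes, members, pathway genes and marker genes called were all 0, with 1 residual degree of freedom left; 2928 to 4733 genes had an unadjusted p under 0.05. Slc7a2 was also called with the filter at the 60th percentile. When limma was fitted to all tested probe sets, the same probe sets of Slc36a4, Slc38a6 and Slc38a7 did not pass. Their limma adjusted p over probe sets was 0.0505, 0.0521 and 0.0521. Dim members have little signal over background, so the size of their change follows the pseudocount.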

Other observations

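Some members are neighbours in the genome. Slc43a1 and Slc43a3 stand on the same chromosome with 1 protein-coding gene between them in the RefSeq table of GRCm38.p6, and they changed in opposite directions (-0.80 and 1.41). Slc7a6os, the direct neighbour of Slc7a6 and not a transporter, was chosen after its value was seen. It was at 101 and 109 in wildtype and at 208 and 181 in SOCS3-null cells, and rose by 0.80 (limma adjusted p = 0.0192), beside the 2.82 of Slc7a6. Slc38a1, Slc38a2 and Slc38a4 are direct neighbours too, and none of the 3 was called. Slc36a3, Slc36a2 and Slc36a1 also stand side by side. Of these, Slc36a1 rose, Slc36a3 was not called and Slc36a2 was not tested.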
